A study of Mus musculus with 18 samples.

Results

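The genes described here are 10 genes of microglia, the resident macrophages of the brain, measured in embryonic mouse cortex in which *Fto* or *Mettl3* had been deleted with *Emx1-Cre*. Microglia derive from yolk sac progenitors that enter the brain in the embryo, whereas *Emx1-Cre* is active in progenitors of the dorsal telencephalon and in the neurons and glia they produce. Microglia are therefore outside the lineage in which the deletion takes place. The members were *Csf1r*, *Cx3cr1*, *P2ry12* and *Trem2*, which encode receptors of the microglial surface, *Tyrobp* and *Fcer1g*, which encode signalling adaptors, *C1qa*, *C1qb* and *C1qc*, which encode the chains of complement component C1q, and *Aif1*, which encodes the calcium-binding protein IBA1. They were found by gene symbol among 55153 genes of the RNA-seq tables and 54838 genes of the Ribo-seq count table, and all 10 were present in both.

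RNA-seq and Ribo-seq were performed on E15.5 cerebral cortex, 18 libraries in total, and the labels name 3 biological repeats for each genotype and assay. Ctrl mice were wild type, *F*-cKO mice carried floxed *Fto* on both alleles with *Emx1-Cre*, and *M*-cKO mice carried floxed *Mettl3* on both alleles with *Emx1-Cre*. All mice are labelled C57BL/6, although the study's methods describe the floxed lines as being on a mixed background, and whether *Emx1-Cre* or a floxed allele alone changes these genes was not tested, because the Ctrl mice carried neither. For Ribo-seq the study's methods speak of 3 cortical samples, from what reads as the same litter, without saying how they map to libraries, and for RNA-seq the number of embryos per library is not given. The same 3 Ctrl libraries of an assay served both comparisons with Ctrl, so results of both knockouts are not independent of each other.

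RNA-seq libraries held 18504094 to 22592406 counted reads (median 20995018), and Ribo-seq libraries held 10973699 to 35853227 counted fragments (median 21725348). Reads from all 10 members together made up 44.3 to 79.5 CPM (counts scaled to library size) in RNA-seq, and those from the 9 members other than *Trem2* made up 19.3 to 59.8 CPM in Ribo-seq. The members were thus measured with few reads. In RNA-seq the median count over 9 libraries was 298 for *Csf1r*, 176 for *Cx3cr1*, 83 for *P2ry12*, 48 for *Fcer1g* and 27 for *Aif1*, at which counting alone gives an SD of 5.79%, 7.54%, 10.98%, 14.4% and 19.2%. These are bulk tissue samples, in which fewer microglia and less RNA per microglial cell cannot be told apart.

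The deleted genes were examined first. *Fto* RNA was 10.8, 11.2 and 8.37 FPKM (fragments scaled by gene length and library size) in Ctrl and 3.26, 7.56 and 2.43 FPKM in *F*-cKO. All *F*-cKO libraries were below all Ctrl libraries, but replicate 2 was much nearer to Ctrl than its other two replicates. In Ribo-seq, *Fto* was 25.9, 22.0 and 17.6 RPKM (the corresponding unit of that assay) in Ctrl and 3.91, 2.11 and 4.04 RPKM in *F*-cKO. *Mettl3* RNA was 5.84, 6.43 and 5.07 FPKM in Ctrl and 8.61, 7.82 and 8.34 FPKM in the libraries labelled *M*-cKO, and was therefore higher, not lower, in all of them. *Mettl3* Ribo-seq levels were 9.16, 9.25 and 9.93 RPKM in Ctrl and 6.78, 6.02 and 6.40 RPKM in *M*-cKO. The study reports the same opposite changes of *Mettl3* and proposes that they might come from its knockout strategy. It also reports loss of the deleted *Mettl3* exons by RT-PCR in younger *M*-cKO cortex. The floxed alleles remove only part of each gene, and gene totals do not separate the removed exons from the others. The RNA level of *Mettl3* therefore does not check the labels of these libraries, and RNA-seq directions for *M*-cKO rest on the labels alone. *Emx1*, the gene whose promoter drives Cre, was 31.7, 30.1 and 16.8 FPKM in Ctrl, 31.8, 37.4 and 36.0 FPKM in *F*-cKO and 34.8, 32.7 and 42.7 FPKM in *M*-cKO. Ctrl replicate 3 was low for this gene.

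RNA of 9 members was detected in every library. In Ctrl RNA-seq the order of mean levels was *C1qb* (9.22 ± 0.985 FPKM, SD, n = 3), *C1qa* (7.41 ± 1.33), *Tyrobp* (5.36 ± 1.68), *C1qc* (5.29 ± 1.06), *Csf1r* (2.89 ± 0.390), *Fcer1g* (2.76 ± 0.310), *Cx3cr1* (2.02 ± 0.167), *P2ry12* (1.52 ± 0.182) and *Aif1* (0.967 ± 0.252). The neighbours *Tyrobp* and *C1qc*, and *Csf1r* and *Fcer1g*, differed by less than their spread. The median Ctrl level of the 16944 genes tested was 4.68 FPKM. *Trem2*, a lipid-sensing receptor that signals through the *Tyrobp* product, was at or near 0. It had 2, 0 and 3 reads in Ctrl, 6, 17 and 0 in *F*-cKO and 3, 4 and 2 in *M*-cKO. The highest value, in *F*-cKO replicate 2, corresponds to 0.168 FPKM. *Trem2* did not pass the filter on low counts in any comparison and was blank in 8 of 9 Ribo-seq count columns, so 9 of 10 members were tested throughout.

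The label of the set was checked against further microglial markers. *Olfml3* was at 0.884 to 1.36 FPKM over the 9 RNA-seq libraries, *Tmem119* at 0.549 to 1.14, *Gpr34* at 0.554 to 1.24 and *Siglech* at 0.160 to 0.600 FPKM. These 4 genes were above 0 in every library. *Sall1*, a transcription factor of microglia that cortical progenitors also express, was at 5.94 to 16.7 FPKM and does not mark microglia alone in this tissue. Most defining genes of blood leukocytes were near 0: of 14 genes of monocytes and neutrophils 10 had a mean below 0.1 FPKM and *Elane* was at 0 in all libraries, and of 10 genes of lymphocytes and mast cells 9 had a mean below 0.1 FPKM and *Cd3e*, *Cd3g* and *Mcpt4* were at 0. The most abundant of all was *Prtn3*, with a mean of 2.72 FPKM over the 9 libraries, above that of *Fcer1g*. Of the first list 2 genes could be tested, and *Prtn3* was lower in *M*-cKO than in Ctrl and *F*-cKO; of the second none passed the filter.

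**Figure D1:**
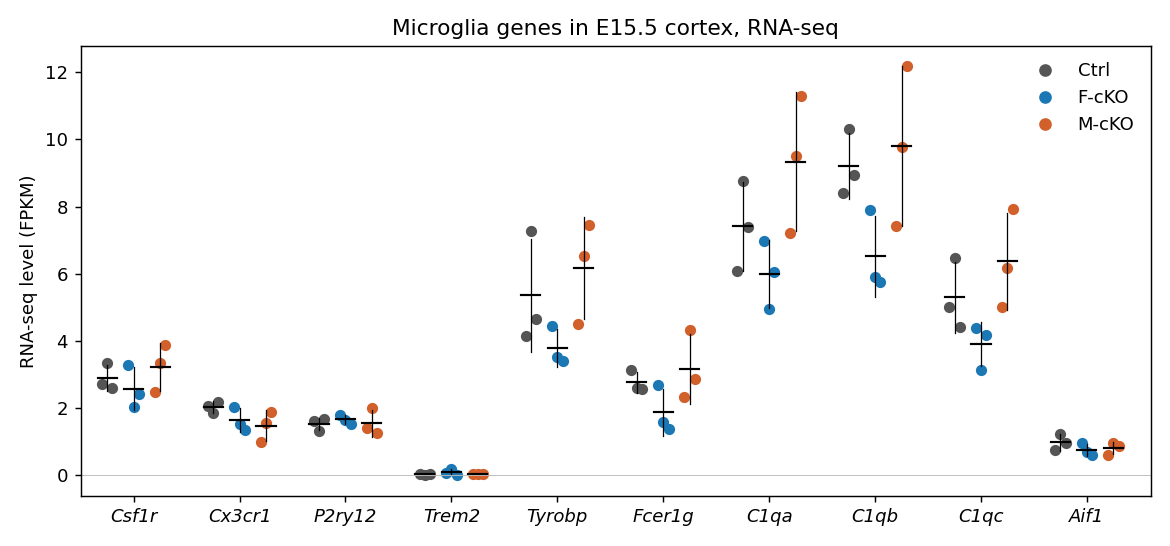
RNA-seq level in FPKM (vertical axis) of the 10 microglia genes, with a point for each of the 3 libraries of Ctrl, *F*-cKO and *M*-cKO, a horizontal line at the mean and a vertical line of 1 SD to either side. *C1qb* and *C1qc* are lower in all *F*-cKO than in all Ctrl libraries, *C1qa*, *C1qc* and *Tyrobp* are higher in all *M*-cKO than in all *F*-cKO libraries, and *Trem2* is near 0.

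Compared to Ctrl, no microglia gene passed the test in *F*-cKO RNA-seq. Of the 9 members tested, 0 were called at an adjusted *P* below 0.05 (edgeR quasi-likelihood test, Benjamini-Hochberg adjustment over all genes), whereas 21.1% of all genes tested were called. At an unadjusted *P* below 0.05 there were 2 members, *C1qb* and *C1qc*. DESeq2 called 1 member and limma on log2 FPKM called 0. The log2 fold change was below 0 for 8 of 9 members, with a median of −0.39, compared with −0.01 for all genes.

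The receptors overlapped between Ctrl and *F*-cKO. *Csf1r*, the receptor for CSF1 and IL-34 on which microglial survival depends, was at 2.72, 3.33 and 2.60 FPKM in Ctrl and 3.28, 2.03 and 2.40 FPKM in *F*-cKO. *Cx3cr1*, the fractalkine receptor, was at 2.06, 1.84 and 2.17 FPKM in Ctrl and 2.03, 1.53 and 1.35 FPKM in *F*-cKO. *P2ry12*, the ADP receptor that guides microglial processes, was at 1.60, 1.31 and 1.66 FPKM in Ctrl and 1.79, 1.65 and 1.51 FPKM in *F*-cKO. For each of these receptors at least 1 *F*-cKO library lay within the range of Ctrl. The log2 fold changes were −0.18 ± 0.18 (SE) for *Csf1r*, −0.32 ± 0.17 for *Cx3cr1* and 0.11 ± 0.18 for *P2ry12*, the only tested member above 0.

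*C1qb*, *C1qc* and both adaptors had the lowest estimates. *C1qb* was at 8.41, 10.3 and 8.94 FPKM in Ctrl and 7.91, 5.89 and 5.75 FPKM in *F*-cKO. *C1qc* was at 5.01, 6.47 and 4.40 FPKM in Ctrl and 4.38, 3.14 and 4.17 FPKM in *F*-cKO. All *F*-cKO values of both genes were below all Ctrl values, although for *C1qc* the gap between *F*-cKO replicate 1 and Ctrl replicate 3 was small. Groups did not overlap in FPKM for 2 of 9 members, compared with 41.6% of all genes tested. *C1qb* had a log2 fold change of −0.51 ± 0.16 (95% interval −0.88 to −0.15) and an adjusted *P* of 0.0515 by edgeR, just above the threshold, and *C1qc* one of −0.45 ± 0.18 and an adjusted *P* of 0.109. *C1qa* was at 6.09, 8.75 and 7.40 FPKM in Ctrl and 6.96, 4.94 and 6.06 FPKM in *F*-cKO, and its groups overlapped.

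*Tyrobp*, the ITAM adaptor also known as DAP12, was at 4.15, 7.28 and 4.65 FPKM in Ctrl and 4.44, 3.52 and 3.40 FPKM in *F*-cKO. *Fcer1g*, the common gamma chain of Fc receptors, was at 3.11, 2.59 and 2.57 FPKM in Ctrl and 2.67, 1.57 and 1.38 FPKM in *F*-cKO. *Aif1* was at 0.728, 1.23 and 0.941 FPKM in Ctrl and 0.952, 0.670 and 0.605 FPKM in *F*-cKO. In each of these genes *F*-cKO replicate 1 lay among the Ctrl libraries and the other two replicates lay below them. The summed level of all members was 33.9, 43.1 and 35.3 FPKM in Ctrl and 34.5, 25.1 and 26.6 FPKM in *F*-cKO, a ratio of means of 0.767. Of the libraries left out in turn, only *F*-cKO replicate 1 changed the count: without it 2 members were called, *C1qb* and *Fcer1g*. With all libraries and no filter on low counts 2 were also called, *C1qb* and *C1qc*. Without *F*-cKO replicate 2, whose *Fto* level was nearest to Ctrl, 0 were called and *C1qb* had a log2 fold change of −0.44.

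In *M*-cKO RNA-seq 0 of 9 members were called against Ctrl by edgeR, compared with 29.6% of all genes tested. *Cx3cr1* was the 1 member with an unadjusted *P* below 0.05, and DESeq2 and limma each called 0. The median log2 fold change of the members was 0.15, with 7 of 9 above 0, and that of all genes was −0.01. *Cx3cr1* was at 0.978, 1.55 and 1.89 FPKM in the libraries labelled *M*-cKO, which overlapped Ctrl (1.84 to 2.17 FPKM). Its log2 fold change was −0.47 ± 0.21 with an adjusted *P* of 0.116 (edgeR), and without *M*-cKO replicate 3 it was −0.68 and was called, the only member called in any fit that left out a library of this comparison.

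*Csf1r* was at 2.46, 3.35 and 3.87 FPKM and *P2ry12* at 1.38, 2.00 and 1.24 FPKM in *M*-cKO. *C1qa* was at 7.20, 9.52 and 11.3 FPKM, *C1qb* at 7.41, 9.79 and 12.2 FPKM and *C1qc* at 5.02, 6.15 and 7.92 FPKM. In *Csf1r* and the C1q chains replicate 1 was the lowest and replicate 3 the highest of the *M*-cKO libraries, and replicate 3 exceeded every Ctrl library. *Tyrobp* was at 4.49, 6.53 and 7.46 FPKM, *Fcer1g* at 2.32, 4.31 and 2.85 FPKM and *Aif1* at 0.604, 0.937 and 0.856 FPKM. No member had *M*-cKO values all above or all below Ctrl (0 of 9), compared with 44.7% of all genes tested. The 95% intervals of the log2 fold changes were wide, from −0.09 to 0.74 for *C1qa*, from −0.31 to 0.46 for *C1qb* and from −0.46 to 0.48 for *P2ry12*, and changes within these intervals cannot be told apart from no change. The summed level was 31.9, 44.2 and 49.6 FPKM in *M*-cKO, a ratio to the Ctrl mean of 1.12.

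The knockouts were then compared with each other without Ctrl. In the libraries labelled *M*-cKO *C1qc* was higher than in *F*-cKO by 0.70 ± 0.19 on the log2 scale (95% interval 0.28 to 1.12, adjusted *P* = 0.0215, edgeR) and *C1qa* by 0.63 ± 0.19 (0.20 to 1.06, adjusted *P* = 0.0346, edgeR), and both were higher in all 3 *M*-cKO libraries than in any *F*-cKO library. These were the 2 of 9 members called, and 27.4% of all genes tested were called. *Tyrobp* (0.69 ± 0.24, adjusted *P* = 0.0512, edgeR) and *C1qb* (0.58 ± 0.20, adjusted *P* = 0.0526, edgeR) were just above the threshold, and *Fcer1g* had an estimate of 0.74 ± 0.32. *Csf1r* (0.32 ± 0.20), *Aif1* (0.10 ± 0.31), *P2ry12* (−0.11 ± 0.21) and *Cx3cr1* (−0.16 ± 0.24) were well short of it. Groups did not overlap for 3 of 9 members, *C1qa*, *C1qc* and *Tyrobp*, compared with 43.5% of all genes tested. The count was 0 without *F*-cKO replicate 2, 0 without *M*-cKO replicate 3, 1 without *F*-cKO replicate 3, 1 without *M*-cKO replicate 2, 4 without *M*-cKO replicate 1 and 5 without *F*-cKO replicate 1. DESeq2 called 3 members and limma on log2 FPKM called 0.

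Members varied together from library to library, but not all of them. Over the 9 RNA-seq libraries the Pearson correlation of log2 CPM between the C1q chains was 0.894 to 0.934, and the median over the 36 pairs of tested members was 0.650, with a range from −0.429 to 0.934. With the mean z-score of the 9 tested members, *C1qb* had a correlation of 0.943, *Csf1r* 0.923, *Tyrobp* 0.899, *C1qa* 0.867, *Fcer1g* 0.849, *C1qc* 0.820 and *Aif1* 0.820. These genes are themselves part of that mean. *Cx3cr1* had a correlation of 0.543 and *P2ry12* one of 0.0103, so these 2 receptors were the least like the mean of the members. The score was highest in *M*-cKO replicates 2 and 3 (0.873 and 0.816) and Ctrl replicate 2 (0.644), and lowest in *F*-cKO replicates 2 and 3 (−1.06 and −0.958) and *M*-cKO replicate 1 (−0.652). All of these correlations are over 9 libraries that share groups and dissections, and are given as a description.

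Among all other genes, the 10 whose log2 CPM were most alike to this score over the 9 libraries were *Gjb2* (*r* = 0.977), *Tgfbr3* (0.970), *Foxd2* (0.969), *Slc13a4* (0.960), *Pf4* (0.958), *Selenop* (0.958), *Thbd* (0.955), *Fbln5* (0.955), *Lox* (0.954) and *Slc16a12* (0.952). *Pf4* belongs to the fixed list of border macrophages, the macrophages of the meninges and perivascular spaces, which also express *Csf1r*, *Tyrobp*, *Fcer1g* and C1q, and the other 9 are in none of the fixed lists. *Gjb2* was at 0.556, 2.31 and 0.577 FPKM in Ctrl, 0.525, 0.102 and 0.135 FPKM in *F*-cKO and 0.146, 2.39 and 2.09 FPKM in *M*-cKO. Ctrl replicate 2 and *M*-cKO replicates 2 and 3 were high, as they were for the score.

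Markers of border macrophages and of the meninges moved with the members. *Pf4* was at 3.16, 8.63 and 4.45 FPKM in Ctrl, 2.83, 0.678 and 1.16 FPKM in *F*-cKO and 2.38, 7.97 and 9.66 FPKM in *M*-cKO. Of 12 border macrophage genes, 6 were tested in *F*-cKO against Ctrl and 4 were lower, *Pf4* (log2 fold change −1.81 ± 0.50), *F13a1* (−1.41 ± 0.41), *Lyve1* (−1.96 ± 0.47) and *Cd163* (−2.61 ± 0.43), with a median of −1.61. DESeq2 called 3 and limma 0, and edgeR called 1 to 5 when a library was left out. In *M*-cKO 0 of 7 tested were called against Ctrl by edgeR (0 also at an unadjusted *P* below 0.05, 0 with DESeq2 and 0 with limma), but 2 were higher without *M*-cKO replicate 1 and 3 without the filter on low counts. In *M*-cKO against *F*-cKO 4 of 6 were higher, *Pf4* (2.09 ± 0.54), *Lyve1* (2.17 ± 0.50), *F13a1* (1.41 ± 0.44) and *Mrc1* (1.43 ± 0.48), compared with 2 by DESeq2, 0 by limma and 1 to 7 by edgeR when a library was left out. The summed level of the list was 7.30, 17.0 and 8.95 FPKM in Ctrl, 6.13, 2.72 and 4.01 FPKM in *F*-cKO and 5.46, 16.0 and 19.4 FPKM in *M*-cKO. Its most abundant gene was *Pf4*, no gene of it was at 0 in all libraries, and 3 genes had a mean below 0.1 FPKM.

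The meningeal list, of collagens and other genes of meningeal fibroblasts, followed the same libraries. Its summed level was 17.2, 34.1 and 17.7 FPKM in Ctrl, 11.01, 4.52 and 12.9 FPKM in *F*-cKO and 9.54, 33.9 and 44.0 FPKM in *M*-cKO. *Col3a1* was the most abundant gene. In *F*-cKO against Ctrl 5 of 10 genes were lower and 0 higher (median −1.25), for example *Slc6a13* (−2.33 ± 0.44), *Aldh1a2* (−1.87 ± 0.37) and *Col1a2* (−1.40 ± 0.38). In *M*-cKO 0 of 10 were called against Ctrl by edgeR (0 at an unadjusted *P* below 0.05, 0 with DESeq2 and 0 with limma), but 4 were higher without *M*-cKO replicate 1 and 4 without the filter on low counts. Between the knockouts 6 of 10 were higher in *M*-cKO (median 1.51). Without *F*-cKO replicate 2, 1 border macrophage gene and 2 meningeal genes were lower in *F*-cKO than in Ctrl, and 2 of each list were higher in *M*-cKO than in *F*-cKO. The part of meningeal tissue and its macrophages in the levels of *C1qa*, *C1qc*, *Tyrobp* and the other members was not tested.

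**Figure D2:**
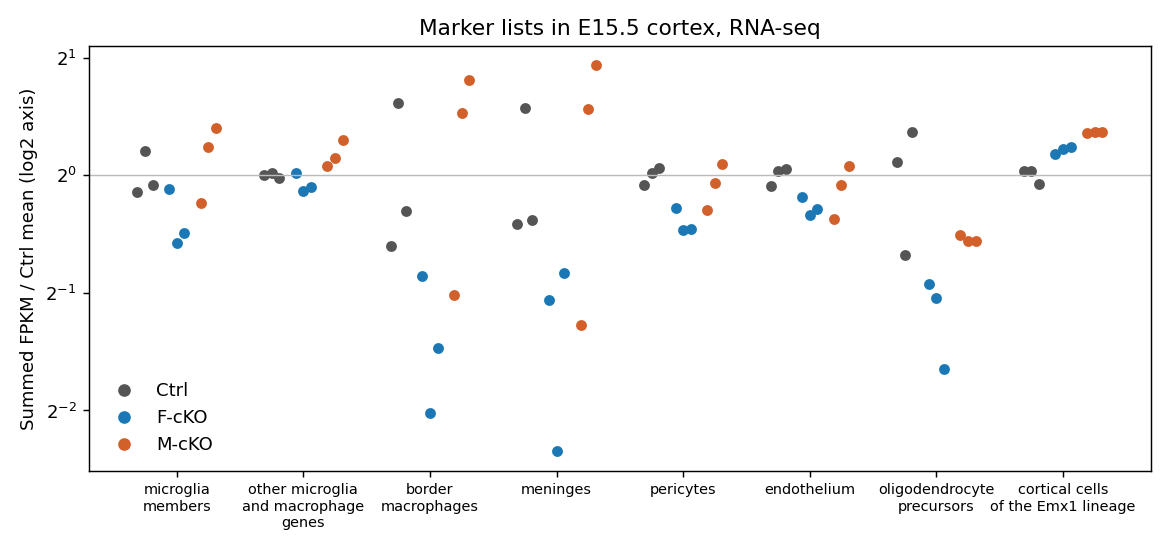
Summed FPKM of 8 marker lists in each of the 9 RNA-seq libraries, divided by the mean of the 3 Ctrl libraries (vertical axis, log2 spacing, a grey line at 1). Points are single libraries of Ctrl, *F*-cKO and *M*-cKO. Border macrophages and meninges spread most, from 0.246 to 1.75 and from 0.197 to 1.91, and the microglia genes spread from 0.670 to 1.32.

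Markers of other cells of the cortex also differed between groups. Of 12 genes of the *Emx1* lineage 7 were higher in *F*-cKO (median 0.42) and 7 were higher in *M*-cKO (median 0.45). The summed level of that list was 913, 915 and 850 FPKM in Ctrl, 1013, 1045 and 1055 FPKM in *F*-cKO and 1144, 1150 and 1149 FPKM in *M*-cKO, with *Neurod6* most abundant. Oligodendrocyte precursor genes were lower in *F*-cKO for 5 of 6 and in *M*-cKO for 1 of 6, *Olig1*, and 4 of 6 were higher in *M*-cKO than in *F*-cKO. Without *F*-cKO replicate 2 these counts were 1 lower in *F*-cKO and 1 higher between the knockouts. Pericyte genes were lower for 5 of 9 (1 without *F*-cKO replicate 2) and higher for 1, *Notch3*, in *F*-cKO, and 1 was lower (*Rgs5*) and 1 higher (*Notch3*) in *M*-cKO. Of 12 endothelial genes 3 were lower in *F*-cKO, *Cldn5*, *Slco1c1* and *Esam*, and 1, *Slco1c1*, in *M*-cKO. The summed endothelial level was 90.8, 98.7 and 99.9 FPKM in Ctrl, 84.9, 76.5 and 79.1 FPKM in *F*-cKO and 74.7, 91.3 and 102 FPKM in *M*-cKO. Of 9 erythroid genes tested 2 were higher in both knockouts, *Hbb-y* and *Hba-x*, and 1 was lower in *F*-cKO, *Hbb-bs*. For the choroid plexus edgeR called 0 of 4 genes in *F*-cKO and 0 of 6 in *M*-cKO (0 at an unadjusted *P* below 0.05 in both), and *Ttr* made up most of its summed level, which was 70.0, 806 and 317 FPKM in Ctrl. Between the knockouts, where *C1qa* and *C1qc* were called, 5 of 9 erythroid genes (*Hba-a1*, *Hba-a2*, *Hbb-bs*, *Hbb-bt* and *Alas2*) and 2 of 6 choroid plexus genes (*Ttr* and *Kl*) were also higher in *M*-cKO, or 2 and 1 without *F*-cKO replicate 2. So were 2 of 9 pericyte genes (*Pdgfrb* and *Vtn*) and 2 of 12 endothelial genes (*Cldn5* and *Esam*), with 1 endothelial gene, *Slco1c1*, lower, and without that library 0 of either list were higher.

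Other genes of microglia and macrophages showed smaller differences than the border macrophage genes. Of 50 such genes 46 were tested in *F*-cKO against Ctrl, *Coro1a*, *Arhgdib* and *Ly86* were lower and *Sall1* was higher, with a median log2 fold change of −0.19. In *M*-cKO 3 of 47 were higher (*Sall1*, *Ikzf1* and *Lyz2*) and 1 was lower (*Siglech*), with a median of 0.17. The number higher was 2 to 6 when a library was left out and 5 without the filter on low counts. *Siglech*, a microglial lectin that signals through the *Tyrobp* product, was at 0.462, 0.432 and 0.600 FPKM in Ctrl and 0.300, 0.234 and 0.160 FPKM in the libraries labelled *M*-cKO, all below Ctrl, with a log2 fold change of −1.10 ± 0.30 (adjusted *P* = 0.0179, edgeR). This call was lost with limma and without Ctrl replicate 3, *M*-cKO replicate 2 or *M*-cKO replicate 3. *Coro1a*, the most abundant gene of the list, and *Sall1* are also expressed by neural cells, so the list does not measure microglia alone. *Lyz2* and *Irf5* were higher in *M*-cKO than in *F*-cKO. The genes lower in *F*-cKO were not stable, since limma called 0 of them and each fit that left out a library called 0 to 2.

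In the list of activated or phagocytic microglia 6 of 12 genes tested were lower in *F*-cKO and 0 were higher. The 6 were *Fabp5*, *Apoe*, *Ctsl*, *Lpl*, *Cd9* and *Spp1*. The list does not measure microglia alone. Its most abundant gene, *Fabp5*, had a mean of 91.1 FPKM over the 9 libraries, compared with 8.51 FPKM for *C1qb*, the most abundant member. *Spp1*, which encodes osteopontin, had the largest decrease of these (−2.34 ± 0.35) and was at 2.03, 1.63 and 1.49 FPKM in Ctrl, 0.531, 0.178 and 0.309 FPKM in *F*-cKO and 0.588, 1.41 and 2.17 FPKM in *M*-cKO. *Apoe* was at 49.2, 62.0 and 52.3 FPKM in Ctrl, 33.6, 29.0 and 28.8 FPKM in *F*-cKO and 42.1, 55.0 and 68.1 FPKM in *M*-cKO. *Spp1* and *Apoe* are also made by other cells than microglia, and in both, as in *Pf4*, replicate 1 was the lowest and replicate 3 the highest of the *M*-cKO libraries. In *M*-cKO 3 of 12 were lower (*Fabp5*, *Lpl* and *Cd9*) and 1 was higher (*Ctsd*), and in *M*-cKO against *F*-cKO 5 were higher (3 without *F*-cKO replicate 2) and 1, *Lpl*, was lower, a call lost with limma and when any of 4 libraries was left out.

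The partners of the receptors were measured as well. Of 12 genes of the *Csf1r* pathway, *Csf1r* included, *Tgfbr1* was higher (0.33 ± 0.07) and *Pik3cd* lower (−0.39 ± 0.09) in *F*-cKO, the latter not called without *F*-cKO replicate 2, and *Pik3cd* was lower in *M*-cKO (−0.33 ± 0.08). *Tgfbr1* and *Pik3cd* are expressed by neural cells too. *Il34*, the neuronal ligand of *Csf1r*, was at 0.752, 0.770 and 1.09 FPKM in Ctrl, 0.521, 0.524 and 0.378 FPKM in *F*-cKO and 0.630, 0.657 and 0.900 FPKM in *M*-cKO. All *F*-cKO values were below Ctrl, but the log2 fold change of −0.88 ± 0.29 was not called (adjusted *P* = 0.0569, edgeR). *Csf1*, the other ligand, was at 2.69, 2.87 and 2.69 FPKM in Ctrl and 1.93, 2.66 and 2.51 FPKM in *F*-cKO.

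A list of 9 genes held partners of *Cx3cr1* and *P2ry12* and a separate chemokine pair, *Cxcl12* and *Cxcr4*, which are not partners of these receptors. In *F*-cKO *Adam10*, a protease that sheds fractalkine, was higher (0.22 ± 0.06), and *Cxcl12* (−0.58 ± 0.12) and *Cxcr4* (−0.28 ± 0.08) were lower. Without *F*-cKO replicate 2 only *Cxcl12* was called, and edgeR called 0 in *M*-cKO (2 at an unadjusted *P* below 0.05). *Cx3cl1*, the fractalkine gene itself, was at 4.94, 3.64 and 4.51 FPKM in Ctrl, 3.33, 3.51 and 2.10 FPKM in *F*-cKO and 4.82, 4.74 and 4.67 FPKM in *M*-cKO. It was higher in *M*-cKO than in *F*-cKO (0.67 ± 0.16, adjusted *P* = 0.0141, edgeR), as was *Cxcr4* (0.24 ± 0.07), and *Adam10* was lower (−0.25 ± 0.06), but without *F*-cKO replicate 2 only *Cx3cl1* was called. Of 20 complement genes 13 were tested in *F*-cKO, where *Megf10*, a glial receptor for C1q, was higher (0.81 ± 0.11). In *M*-cKO *C3ar1* was higher (1.08 ± 0.31) and *C1s2* (−1.54 ± 0.41) and *Csmd1* (−0.38 ± 0.13) were lower. In the ITAM adaptor list, which includes *Tyrobp* and *Fcer1g* themselves, *Pirb* was higher (1.26 ± 0.38) and *Syk*, the kinase recruited by both adaptors, was lower (−0.85 ± 0.20) in *F*-cKO, where the *Pirb* call was lost without replicate 2. *Lat2* (−1.50 ± 0.27) and *Siglech* were lower in *M*-cKO, and edgeR called 0 of 12 between the knockouts (7 at an unadjusted *P* below 0.05, both adaptors among them).

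In Ribo-seq, which counts ribosome-protected fragments, 1 library stood apart. *F*-cKO replicate 2 had the fewest counted fragments (10973699), and over the 14335 genes tested 25.1% were higher and 37.3% were lower in it than in all of the other 8 libraries. *Csf1r* was at 5.10 RPKM in this library and at 0.348 to 1.30 in the other 8, *Cx3cr1* at 2.49 against 0.276 to 0.593, *P2ry12* at 3.00 against 0.543 to 0.978 and *Trem2* at 0.301 against 0.0323 to 0.133 RPKM. All 4 receptors were thus above the other 8 libraries, by 6.39, 5.50, 4.19 and 3.52 times their median. *Tyrobp* (3.72 against 4.46 to 9.98 RPKM) and *Aif1* (1.36 against 1.67 to 2.94 RPKM) were below the other 8, and *C1qa*, *C1qb*, *C1qc* and *Fcer1g* were within their range. In RNA-seq *F*-cKO replicate 2 was not above the other libraries for *Csf1r*, *Cx3cr1* or *P2ry12*, and only *Trem2* had its highest value there. Endothelial genes were high in the same Ribo-seq library, with a summed level of 159 RPKM against 12.4 and 18.3 RPKM in *F*-cKO replicates 1 and 3 and 14.4, 19.5 and 21.6 RPKM in Ctrl. What sets this library apart was not tested, and results of the members in *F*-cKO Ribo-seq are given with and without it.

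**Figure D3:**
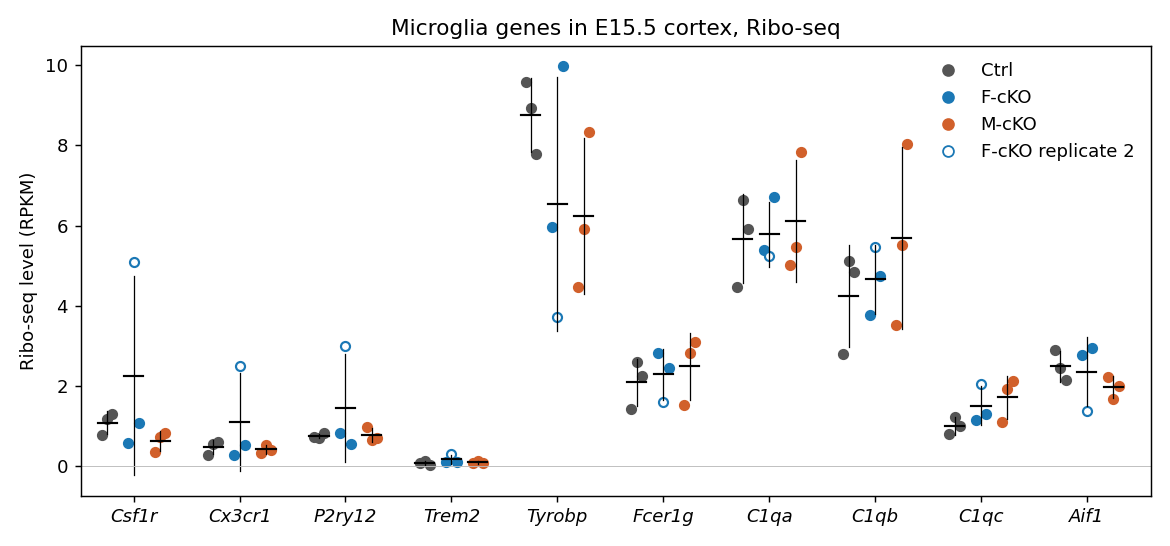
Ribo-seq level in RPKM (vertical axis) of the 10 microglia genes in the 3 libraries of Ctrl, *F*-cKO and *M*-cKO, with a horizontal line at the mean and a vertical line of 1 SD to either side. The open points mark *F*-cKO replicate 2, which is above all other libraries for *Csf1r*, *Cx3cr1*, *P2ry12* and *Trem2* and below them for *Tyrobp* and *Aif1*.

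In Ctrl the order of Ribo-seq levels was *Tyrobp* (8.76 ± 0.913 RPKM, SD, n = 3), *C1qa* (5.67 ± 1.11), *C1qb* (4.24 ± 1.27), *Aif1* (2.49 ± 0.384), *Fcer1g* (2.08 ± 0.598), *Csf1r* (1.08 ± 0.277), *C1qc* (0.996 ± 0.215), *P2ry12* (0.748 ± 0.0595), *Cx3cr1* (0.472 ± 0.171) and *Trem2* (0.0808 ± 0.0481). *C1qa* and *C1qb*, *Aif1* and *Fcer1g*, and *Csf1r* and *C1qc* were neighbours that differed by less than or about as much as their spread.

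Against Ctrl 0 of 9 members were called in *F*-cKO Ribo-seq by edgeR, and 0.0% of all genes tested were called. No member had an unadjusted *P* below 0.05, and DESeq2 and limma each called 0. With all libraries the log2 fold changes were 1.18 ± 0.85 for *Csf1r*, 1.32 ± 0.88 for *Cx3cr1* and 1.04 ± 0.71 for *P2ry12*. Without *F*-cKO replicate 2 they were −0.39 ± 0.37, −0.23 ± 0.45 and −0.18 ± 0.32, so that the direction of all 3 receptors came from that library. Without it 0 members were again called, compared with 0.00698% of all genes. *C1qa* (0.07 ± 0.27 with and 0.08 ± 0.26 without it) and *C1qc* (0.65 ± 0.40 and 0.28 ± 0.31) stayed above 0, as did *Fcer1g* (0.17 ± 0.36 and 0.31 ± 0.35). *Tyrobp* stayed below 0 (−0.38 ± 0.37 and −0.14 ± 0.28), whereas *C1qb* (0.19 ± 0.36 and −0.01 ± 0.33) and *Aif1* (−0.05 ± 0.34 and 0.17 ± 0.25) turned. *C1qc* was at 0.784, 1.21 and 0.992 RPKM in Ctrl and at 1.14, 2.06 and 1.30 RPKM in *F*-cKO. *Tyrobp* was at 9.58, 8.93 and 7.78 RPKM in Ctrl and 5.95, 3.72 and 9.98 RPKM in *F*-cKO. The groups of both genes overlapped, and groups did not overlap for 0 of 9 members, compared with 7.16% of all genes. The summed level of the 10 members was 23.8, 29.5 and 26.6 RPKM in Ctrl and 23.6, 30.3 and 30.4 RPKM in *F*-cKO, a ratio of means of 1.05 (1.01 without replicate 2).

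In *M*-cKO Ribo-seq edgeR called 0 of 9 members against Ctrl, compared with 14.6% of all genes tested, and DESeq2 and limma each called 0. *C1qc* was the 1 member with an unadjusted *P* below 0.05. It was at 1.10, 1.92 and 2.11 RPKM in *M*-cKO, and its log2 fold change was 0.80 ± 0.33 (95% interval 0.04 to 1.56, adjusted *P* = 0.132, edgeR). *M*-cKO replicate 1 lay within the Ctrl range, and the other two libraries lay above it. *Csf1r* was at 0.771, 1.18 and 1.30 RPKM in Ctrl and 0.348, 0.725 and 0.824 RPKM in *M*-cKO, with a log2 fold change of −0.76 ± 0.37 (adjusted *P* = 0.187, edgeR). *Tyrobp* was at 4.46, 5.93 and 8.34 RPKM (−0.48 ± 0.26), and its highest *M*-cKO value lay within Ctrl. Groups did not overlap for 0 of 9 members, compared with 38.0% of all genes. The other members had log2 fold changes from −0.33 (*Aif1*) to 0.44 (*C1qb*). The summed level was 19.5, 25.4 and 33.4 RPKM, a ratio to Ctrl of 0.980.

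Between the knockouts 0 of 9 members were called in Ribo-seq by edgeR, as were 0.0% of all genes, with 0 members at an unadjusted *P* below 0.05 and 0 by DESeq2 and by limma, and without *F*-cKO replicate 2 edgeR again called 0. *C1qc* and *C1qa*, the members called between the knockouts in RNA-seq, had Ribo-seq log2 differences of 0.16 ± 0.45 and 0.07 ± 0.31, or 0.54 ± 0.40 and 0.07 ± 0.30 without *F*-cKO replicate 2. The intervals without that library, −0.40 to 1.48 for *C1qc* and −0.65 to 0.79 for *C1qa*, include the RNA-seq estimates. Border macrophage and meningeal genes, which moved with the members in RNA-seq, had 0 genes called in any Ribo-seq comparison by edgeR (1 border macrophage gene at an unadjusted *P* below 0.05 in each knockout against Ctrl, 1 meningeal gene called by DESeq2 in *M*-cKO, 0 by limma, 0 by edgeR without *F*-cKO replicate 2). Their summed levels were 14.3, 25.5 and 20.4 RPKM in Ctrl, 17.97, 14.4 and 28.9 RPKM in *F*-cKO and 3.61, 28.2 and 24.2 RPKM in *M*-cKO for border macrophages, with *M*-cKO replicate 1 far below the rest. For the meninges they were 24.1, 45.3 and 38.7 RPKM in Ctrl, 20.1, 53.0 and 43.5 RPKM in *F*-cKO and 5.67, 24.7 and 33.0 RPKM in *M*-cKO, a ratio of *M*-cKO to Ctrl of 0.586, whereas in RNA-seq it was 1.27.

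The ratio of Ribo-seq RPKM to RNA-seq FPKM, a measure of translation efficiency (TE), ranged widely among the members. From Ctrl means it was 2.57 for *Aif1*, 1.64 for *Tyrobp*, 0.765 for *C1qa*, 0.756 for *Fcer1g*, 0.491 for *P2ry12*, 0.460 for *C1qb*, 0.375 for *Csf1r*, 0.233 for *Cx3cr1* and 0.188 for *C1qc*, and the median over 13740 genes was 0.931. The C1q chains, whose proteins assemble in equal number, thus differed in this ratio, and *Trem2* was too low in RNA-seq for a ratio. The same gene length was used for both assays, so the ratio also depends on how much of a transcript is coding. No member was called for TE by edgeR's test of the interaction of assay and genotype, in *F*-cKO (0 of 9, with 0.0% of all genes called) or in *M*-cKO (0 of 9, with 2.07% of all genes called). At an unadjusted *P* below 0.05 there was 1 member in *F*-cKO (0 in *M*-cKO), and DESeq2 called 0 in both. All 9 members had a log2 TE difference above 0 in *F*-cKO (median 0.71, compared with −0.00 for all genes), whereas without *F*-cKO replicate 2 of both assays, left out together, the median was 0.33, *Csf1r* (−0.34 ± 0.42) and *P2ry12* (−0.28 ± 0.36) were below 0, and 0 members were called. Other lists had larger medians with all libraries, with 0 genes called. These were 2.07 for border macrophages, 1.93 for endothelium, 1.56 for activated or phagocytic microglia, 1.54 for meninges and 1.45 for pericytes. Complement (1.07), the list with *Cx3cr1* and *P2ry12* partners (0.94) and oligodendrocyte precursors (0.82) were also above the members. Without replicate 2 of both assays the medians were, in the same order, 1.48, −0.18, 0.34, 0.76, 0.37, −0.16, −0.02 and 0.69. Medians were below 0 with all libraries for the *Emx1* lineage (−0.19) and for monocytes and neutrophils (−0.82). What the lists have in common was not tested. *C1qc* had the smallest unadjusted *P*, with 1.06 ± 0.43 with all libraries and 0.61 ± 0.34 without replicate 2 of both assays. In *M*-cKO *Csf1r* had the lowest value, −0.85 ± 0.41.

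Positions of the members were read from the RefSeq annotation of GRCm38.p6, the assembly that mm10, the build of the deposited tables, is based on. *C1qb* (chr4:136880126-136886200), *C1qc* (chr4:136889801-136892936) and *C1qa* (chr4:136895916-136898844) are direct neighbours, and from the last base of each to the first base of the next the coordinates differ by 3601 (*C1qb* to *C1qc*) and 2980 (*C1qc* to *C1qa*). *P2ry12* (chr3:59216271-59262985) overlaps *Med12l*, which was higher in both knockouts in RNA-seq (log2 fold change 0.46 ± 0.13 in *F*-cKO and 0.46 ± 0.15 in *M*-cKO). The sources used here do not say if reads were counted by strand, so reads of the overlap could belong to either gene. *Tyrobp* (chr7:30413782-30417582) lies at a coordinate distance of 130 from *Hcst*, which encodes a related adaptor.

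The stretches before the gene starts were searched for the letters GGAAGT on both strands, the core bound by Ets factors such as PU.1, which is encoded by *Spi1*. RefSeq promoter sequences, of 250 bases before to 50 bases after the gene start, matched 7 of the 10 members, and those of *C1qa*, *Csf1r* and *Tyrobp* were not used here. The letters were found for 3 of the 7, and 23.8% of 32851 promoters of the same length hold them. The longer form GAGGAAGT, which contains them, was found for 1, *C1qc*, and in 3.20% of all promoters. The 30-base windows below are shown because they hold the match for C1q chains and for *P2ry12*, the member least like the others. They are given 5′ to 3′ on the gene's strand, which is the minus strand for all 3, and capitals mark GGAAGT or its reverse complement ACTTCC. They lie before the gene start at chr4:136886236-136886265 for *C1qb*, chr4:136893092-136893121 for *C1qc* and chr3:59263019-59263048 for *P2ry12*. A match is a description of these letters and not a binding site.
C1qb: acaggacctgaaACTTCCtgagggcagcag
C1qc: gggacggcagacACTTCCtcattttggcac
P2ry12: agctaacaagaaGGAAGTtccccagtgaca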

How the data were processed

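For RNA-seq, the authors aligned reads to mm10 with HISAT2 2.0.5 and deposited counts and FPKM per gene. The counting tool is not given in the sources used here. For Ribo-seq, the authors used TopHat2 for mapping and HTSeq for counting, and deposited counts and RPKM. Blank cells in the Ribo-seq counts affected 40490 of 54838 genes, *Trem2* among them, which were left out of count tests. Libraries were grouped by the labels, and symbols matched 54723 of 55153 identifiers.

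Counts were filtered by filterByExpr (minimum count 10, minimum total 15), scaled by TMM and tested with edgeR 4.0.16 (glmQLFit and glmQLFTest) in R 4.3.3, over the 6 libraries of each comparison, or 12 for TE, as the interaction of assay and genotype. Adjustment of *P* across the genes of a comparison followed Benjamini and Hochberg, and genes below 0.05 were called. The tests were tested on simulated counts. Alternatives were DESeq2 1.42.0, RLE scaling, no filter, the replicate number as a block, all 9 libraries of an assay in a single fit, each library left out, and limma 3.58.1 on log2 of the deposited FPKM or RPKM plus 0.1 for genes with a mean above 0.1. Correlations and levels were computed in Python 3.11.15. Named genes are all members, the targets, *Emx1*, up to 6 genes per list (3 with the highest mean FPKM, 3 with the smallest *P* in the comparison), markers fixed for microglia, and the 10 genes most alike to the members. Other list genes, and *Med12l*, were named after their values were seen. The members and lists were chosen with earlier results of these data known.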

Additional observations from a re-analysis of the deposited data

Results flagged for a closer look

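The effects of the 2 knockouts on a pair of C1q chains in RNA-seq differed in a direct test. *C1qc* was higher in *M*-cKO than in *F*-cKO by 0.70 on the log2 scale, and *C1qa* was higher by 0.63. These are 2 of 9 members tested, a smaller share than the 27.4% of all genes called in this comparison. Neither gene was called against Ctrl in either knockout, with log2 fold changes of −0.45 and −0.32 in *F*-cKO and 0.25 and 0.33 in *M*-cKO. Between the knockouts neither was called without *F*-cKO replicate 2 (0.57 and 0.52), without *M*-cKO replicate 3 (0.52 and 0.49) or with limma (0.68 and 0.62). *C1qa* was also not called with the replicate number as a block (0.62), without *F*-cKO replicate 3 (0.66) or without *M*-cKO replicate 2 (0.63). The border macrophage and meningeal genes that were higher in the same libraries are given beside these results, and their part was not tested.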

How the results depend on the processing

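In *F*-cKO against Ctrl (RNA-seq, 0 members called) DESeq2 called 1 member and edgeR without a filter on low counts called 2, and leaving out a library gave 0 to 2. In *M*-cKO against Ctrl (0 called) the fit without a filter called 1, and leaving out a library gave 0 to 1. Between the knockouts (2 called) the fit without a filter called 5, limma called 0, and leaving out a library gave 0 to 5. No setting called a member in Ribo-seq or TE. The summed Ribo-seq ratio of *F*-cKO to Ctrl was 1.21 without *Tyrobp*, and otherwise 1.00 to 1.14 over libraries left out. The other summed ratios were 0.690 to 0.830 (RNA-seq, *F*-cKO), 1.01 to 1.25 (RNA-seq, *M*-cKO) and 0.843 to 1.10 (Ribo-seq, *M*-cKO). Genes of the meninges lower in *F*-cKO (5) were 10 without a filter, 4 with DESeq2, 2 with limma, 2 with all 9 libraries in a single fit and 2 to 8 with a library left out. Genes of the meninges higher in *M*-cKO than in *F*-cKO (6) were 10, 5, 1, 5 and 2 to 9. Leaving out libraries for summed levels, and counts of lists under all settings, were chosen after the data were seen. The cause of these differences was not tested.

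With the replicate number as a block, 1 member, *C1qc*, was called between the knockouts, and no other count of members changed. With the block, genes lower in *F*-cKO numbered 0 for other microglia and macrophage genes, 1 (instead of 4) for border macrophages and 2 (instead of 5) for meninges, and genes higher in *M*-cKO than in *F*-cKO numbered 1 (instead of 4) for border macrophages and 2 (instead of 6) for meninges. Within an assay, deviations from group means had correlations of −0.28 to 0.16 between libraries with the same number in different groups. These values do not show pairing by number. Whether libraries with the same number shared litters or dissections was not tested, and RNA-seq and Ribo-seq libraries of the same number were not compared. In *M*-cKO against Ctrl *P2ry12* in RNA-seq turned to −0.00818 with the block and to −0.00244 with limma, from 0.00873. *Aif1* for TE turned to −0.00564 with RLE scaling and to −0.00224 with DESeq2, from 0.00980.

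Directions of single members that turned when a library was left out are given as the lowest and highest log2 fold change. RNA-seq, *M*-cKO against Ctrl: *C1qb* −0.10 to 0.25, *P2ry12* −0.21 to 0.15, *Fcer1g* −0.10 to 0.37. RNA-seq, *M*-cKO against *F*-cKO: *Cx3cr1* −0.37 to 0.0811, *P2ry12* −0.33 to 0.0400, *Aif1* −0.0210 to 0.32. Ribo-seq, *F*-cKO against Ctrl: *Csf1r* −0.39 to 1.65, *C1qb* −0.0100 to 0.38, *C1qa* −0.0450 to 0.23, *Cx3cr1* −0.23 to 1.80, *P2ry12* −0.18 to 1.54, *Aif1* −0.19 to 0.17, *Fcer1g* −0.0228 to 0.37. Ribo-seq, *M*-cKO against Ctrl: *C1qa* −0.0835 to 0.28, *Cx3cr1* −0.47 to 0.0279, *P2ry12* −0.10 to 0.17. Ribo-seq, *M*-cKO against *F*-cKO: *C1qb* −0.0507 to 0.53, *C1qa* −0.14 to 0.20, *C1qc* −0.0336 to 0.54, *Cx3cr1* −1.97 to 0.0724, *Tyrobp* −0.32 to 0.31, *P2ry12* −1.46 to 0.26, *Fcer1g* −0.0540 to 0.39. For TE the library of the same number was left out of both assays at once. TE, *F*-cKO against Ctrl: *Csf1r* −0.34 to 2.02, *P2ry12* −0.28 to 1.28, *Tyrobp* −0.41 to 0.36, *Aif1* −0.0164 to 0.61. TE, *M*-cKO against Ctrl: *P2ry12* −0.13 to 0.42, *Fcer1g* −0.16 to 0.37, *Aif1* −0.23 to 0.31.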
